A study of Mus musculus with 73 samples.

Results

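Casz1 encodes a zinc-finger transcription factor, and among 73 hand-picked inner hair cells labelled as lacking it, reads of the gene differed widely from cell to cell. High-Casz1 cells were defined as the 31 cells with 50 CPM of Casz1 or more, and low-Casz1 cells as the 18 cells below 10 CPM, which makes 49 of 73 cells. The cells were thus chosen by their own Casz1 level, given in CPM (counts per 1000000 counts of the library). The 24 cells between these levels are called intermediate and are given beside the others.

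Every cell came from mouse cochlea at postnatal day 14 and carried the same alleles: Atoh1Cre/+, Casz1flox/flox, Fgf8-Flpo/+ and, at the Rosa26 locus, the Cre-dependent 3xGFP reporter Ai47 opposite an Flp-dependent tdTomato reporter. Cre was driven by Atoh1, a gene of nascent hair cells, and Flp by Fgf8, an inner hair cell gene. Cells that were both green and red were picked under the microscope, and their RNA was amplified with the Smart-Seq HT kit. The Cre and Flpo alleles and the reporters are shared by the high-Casz1 and low-Casz1 cells. The study's 55 wild-type cells are outside the data used here, and no animal is named, so the 73 cells stand as 1 sample. The classes were cut from the measured Casz1 level of the same libraries. All differences between them are therefore descriptions of these cells, without tests, and any difference between animals or litters cannot be told apart from them.

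Casz1 is known for its roles in photoreceptors and heart muscle, where it works with repressive chromatin complexes such as NuRD (nucleosome remodelling and deacetylase) and Polycomb. Inner hair cells release glutamate onto auditory nerve fibres through the vesicular transporter encoded by Slc17a8, whereas outer hair cells change length through prestin, encoded by Slc26a5. The study addressed the part of Casz1 in the choice between these fates, so genes of both cell types are given first.

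The lowest, median and highest Casz1 level was 51.97, 100.8 and 283 CPM in the high-Casz1 cells, 10.03, 32.7 and 49.5 CPM in the intermediate cells, and 0, 1.43 and 9.56 CPM in the low-Casz1 cells. In reads, the high-Casz1 cells held 748 to 4708 counts of the gene and the low-Casz1 cells 0 to 186. Levels formed no gap at either threshold: the cells next to the lower one stood at 9.56 and 10.03 CPM, and those next to the upper one at 49.5 and 51.97 CPM. Of the low-Casz1 cells, 9 were under 1 CPM and 2 had no count, while 16 of the high-Casz1 cells reached 100 CPM. Casz1 lies at chr4:148804429-148954889 on the plus strand of mm10. The exons that Cre removes are not stated in the labels, so counts of the whole gene do not check the deletion in any cell. The antisense gene Gm13205 overlaps the gene and held 2648 counts over all cells, with at most 26.5 CPM in a high-Casz1 cell and 0.106 CPM in a low-Casz1 cell; no strand setting of the counting is given, so reads of this pair cannot be told apart.

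**Figure D1:**
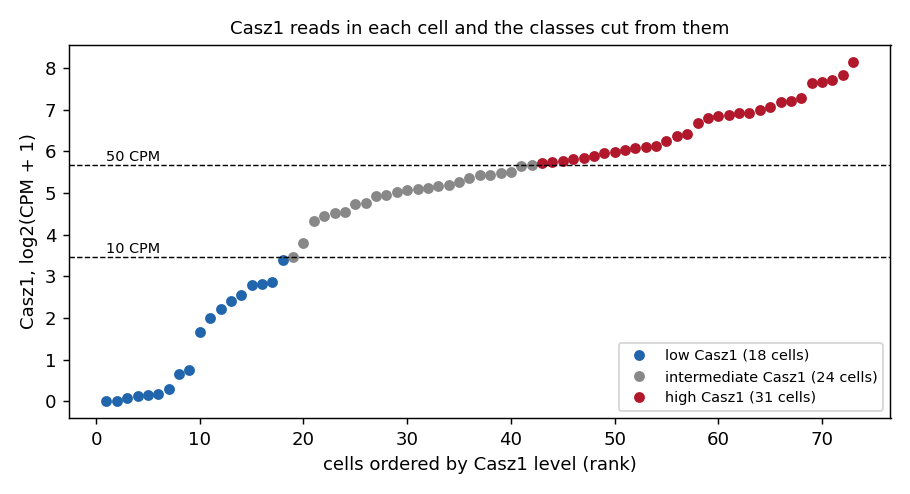
Casz1 level of each of the 73 cells as log2(CPM + 1), in order of the level, with dashed lines at 10 and 50 CPM. Colours mark the 18 low, 24 intermediate and 31 high cells, and levels run without a gap across both lines.

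Libraries of both classes were of like depth. Total counts ranged from 11027945 to 22242629 (median 16507505) in the high-Casz1 cells and from 12608676 to 23364830 (median 16732517) in the low-Casz1 cells. A high-Casz1 cell had the larger total in 48.03% of the 558 pairs of 1 high and 1 low cell, a measure called the pair share, which is 50 where neither class is higher. The median number of genes with a count was 8591 in the high-Casz1 and 8228 in the low-Casz1 cells (pair share 62.5%). With all libraries thinned to 11027945 counts the medians were 8340 and 7910 (pair share 64.5%). The mitochondrial share of counts had medians of 6.74% and 5.88%, and the share of cytosolic ribosomal protein genes 1.78% and 2.02% (pair share 33.7%). The reporter element WPRE stood at medians of 144 and 166 CPM. No Xist was detected at 10 CPM in any cell, and a Y-linked gene was detected in all 31 high-Casz1 and all 18 low-Casz1 cells.

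Reads of markers of other cell types were found in both classes. Of 74 such markers, 64 were rare, each reaching 10 CPM in under 10 cells. Summed over the rare markers, the lowest, median and highest level was 0.360, 89.9 and 413 CPM in the high-Casz1 cells and 0.0555, 40.1 and 1562 CPM in the low-Casz1 cells. A rare marker reached 50 CPM in 15 of 31 high-Casz1 cells (48.4%, exact Clopper-Pearson 95% interval 30.2 to 66.9), 7 of 24 intermediate cells and 4 of 18 low-Casz1 cells (22.2%, 6.41 to 47.6). These intervals, like all below, cover counting error over cells only. By cell type, 16 supporting cell markers had median summed levels of 5626, 6034 and 4593 CPM in high, intermediate and low cells. For 11 neuron markers the medians were 563, 388 and 469 CPM, and for 10 glia markers 37.6, 65.2 and 13.9 CPM. Of these lists and those of other types, 2 of 8 stria, 1 of 9 mesenchyme and 1 of 11 immune markers had no count in any cell. The part of RNA from other cells in the differences below was not tested beyond leaving out the cells with a rare marker.

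**Figure D2:**
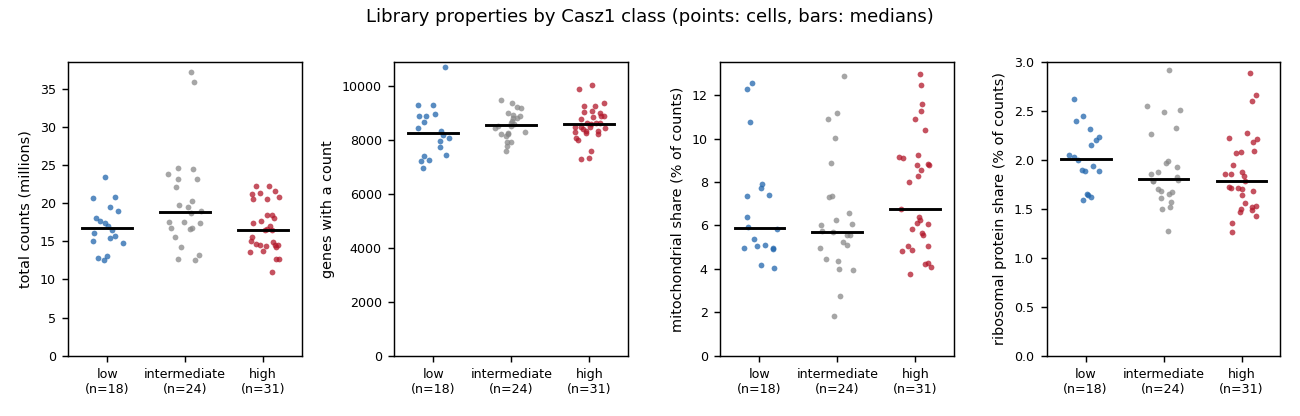
Total counts, genes with a count, mitochondrial share and ribosomal protein share in each cell, by Casz1 class; points are cells and bars medians. The classes overlap in all 4 measures, and the median ribosomal protein share is 1.78% in the high-Casz1 and 2.02% in the low-Casz1 cells.

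Slc17a8, the defining gene of the labelled cell type, was present in every cell of all classes. Its lowest, median and highest level was 436, 1258 and 2281 CPM in the high-Casz1 cells, 756, 1583 and 2992 CPM in the intermediate cells and 486, 1304 and 2009 CPM in the low-Casz1 cells. The ranges overlap almost whole, and the difference of the mean log2(CPM + 1), high minus low, was -0.14 (pair share 43.4%). On this scale the 1 CPM added shrinks ratios between low levels, while cells near 0 weigh heavily in the means of genes found in some cells only. With 10 CPM added instead, 104 genes were at least 2-fold higher and 74 lower, against 958 and 664. Otof, the calcium sensor of transmitter release in these cells, had medians of 3102 and 3041 CPM (difference 0.11), and Calb2, the calcium buffer calretinin, 8587 and 7116 CPM (0.05, or -0.01 with DESeq2 size factors).

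Gata3 and Tbx2, regulators of inner hair cell fate, overlapped between the classes. Gata3, a zinc-finger factor of inner ear development, stood at 28.7, 297 and 1146 CPM (lowest, median, highest) in the high-Casz1 and 56.4, 204 and 598 CPM in the low-Casz1 cells, a difference of 0.18. Tbx2, which maintains inner over outer hair cell fate, stood at 0, 110.2 and 589 CPM in the high-Casz1 and 0, 66.7 and 293 CPM in the low-Casz1 cells, a difference of 0.38 (pair share 60.2%). Over 15 alternative settings the difference ran from 0.09 to 0.54 for Gata3 and from -0.01 to 0.97 for Tbx2. Cells without Tbx2 at 10 CPM occurred in every class: it was detected in 25 of 31, 20 of 24 and 16 of 18 cells. Atp2a3, an endoplasmic reticulum calcium pump, was detected in 24 of 31 high-Casz1 (77.4%) and 14 of 18 low-Casz1 cells (77.8%).

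Of the 12 genes on the inner hair cell list, 11 had a mean of 10 CPM or more over all 73 cells, the minimum for comparison. Of these, 7 were higher and 4 lower in the high-Casz1 cells, with a median difference of 0.11, beside 0.04 over all 8618 other genes compared. None was at least 2-fold higher, where 11.1% of the 8618 genes were, and 1 was at least 2-fold lower, where 7.70% were. That gene was Shtn1, which encodes the axon-growth protein shootin-1, with medians of 15.5, 60.04 and 43.01 CPM in high, intermediate and low cells (difference -1.41). It was under 2-fold with a pseudocount of 10 (-0.56), at the wider Casz1 thresholds of 100 and 1 CPM (-0.76) and with all cells divided at 25 CPM (-0.96). The mean of the whole list per cell ran the other way, at 6.62 log2 units in the high-Casz1 and 6.75 in the low-Casz1 cells. Under 17 alternative settings the list's median ranged from -0.07 to 0.36, with its sign kept in 14.

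Most outer hair cell genes compared had lower mean log2 levels in the high-Casz1 cells, within a wide spread. Slc26a5 had a lowest, median and highest level of 0, 50.5 and 1229 CPM in the high-Casz1 cells, 0.115, 136 and 1132 CPM in the intermediate cells and 0, 99.1 and 772 CPM in the low-Casz1 cells. The difference was -0.76 (pair share 43.1%; -0.26 with an adjustment for genes detected, and -1.64 for cells at 100 CPM of Casz1 or more against those below 1 CPM), and the 3 ranges overlap almost whole. It was detected in 19 of 31 high-Casz1 cells (61.3%, 42.2 to 78.2), 19 of 24 intermediate cells (79.2%, 57.8 to 92.9) and 13 of 18 low-Casz1 cells (72.2%, 46.5 to 90.3), so the intervals overlap. Every cell with Slc26a5 also had Slc17a8, and such double-positive cells were present at both ends of the Casz1 scale. Levels of Slc26a5 of 100 CPM or more occurred in 10 of 31, 13 of 24 and 9 of 18 cells. With the counts of each class summed, Slc26a5 stood at 208 CPM in high, 258 CPM in intermediate and 222 CPM in low cells.

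Of the 14 outer hair cell genes, 11 were compared. Of these, 9 were lower and 2 higher in the high-Casz1 cells, where 4100 of all 8618 genes were lower. Their median difference was -0.59 (-0.72 to -0.07 over the 17 alternatives). None passed the 2-fold rule upwards (all genes, 11.1%) and 1 passed it downwards (7.70%). This was Calb1, the calcium buffer calbindin, detected in 19 of 31, 13 of 24 and 14 of 18 cells (difference -1.32). It stayed 2-fold lower in 10 of 15 alternative settings, and stood at -0.53 adjusted for Slc26a5, -0.70 for the mitochondrial share and -0.73 for genes detected. The calcium-binding proteins oncomodulin (Ocm, -0.59) and sorcin (Sri, -0.73) and the water channel Aqp11 (-0.64) were also lower, each with a pair share between 43.4% and 47.8%. By differences of medians these 3 stood at -0.29, -0.30 and 0.03, and at the wider Casz1 thresholds of 100 and 1 CPM at -0.72, -0.88 and -1.74. Kcnn2, the calcium-activated potassium channel SK2 of the efferent synapse, was higher in the high-Casz1 cells at 0.42. It stood at -0.08 by differences of medians and at 1.16 at the wider thresholds. Of the outer hair cell regulators, Insm1 had no count in any cell, Bcl11b reached 10 CPM in 1 high-Casz1 cell, and Ikzf2 in 3 high-Casz1, 3 intermediate and 0 low-Casz1 cells. The mean outer minus the mean inner hair cell level per cell had medians of -1.83, -1.93 and -1.36 log2 units in high, intermediate and low cells. The outer hair cell mean was above the inner in 6 of 31, 5 of 24 and 3 of 18 cells.

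**Figure D3:**
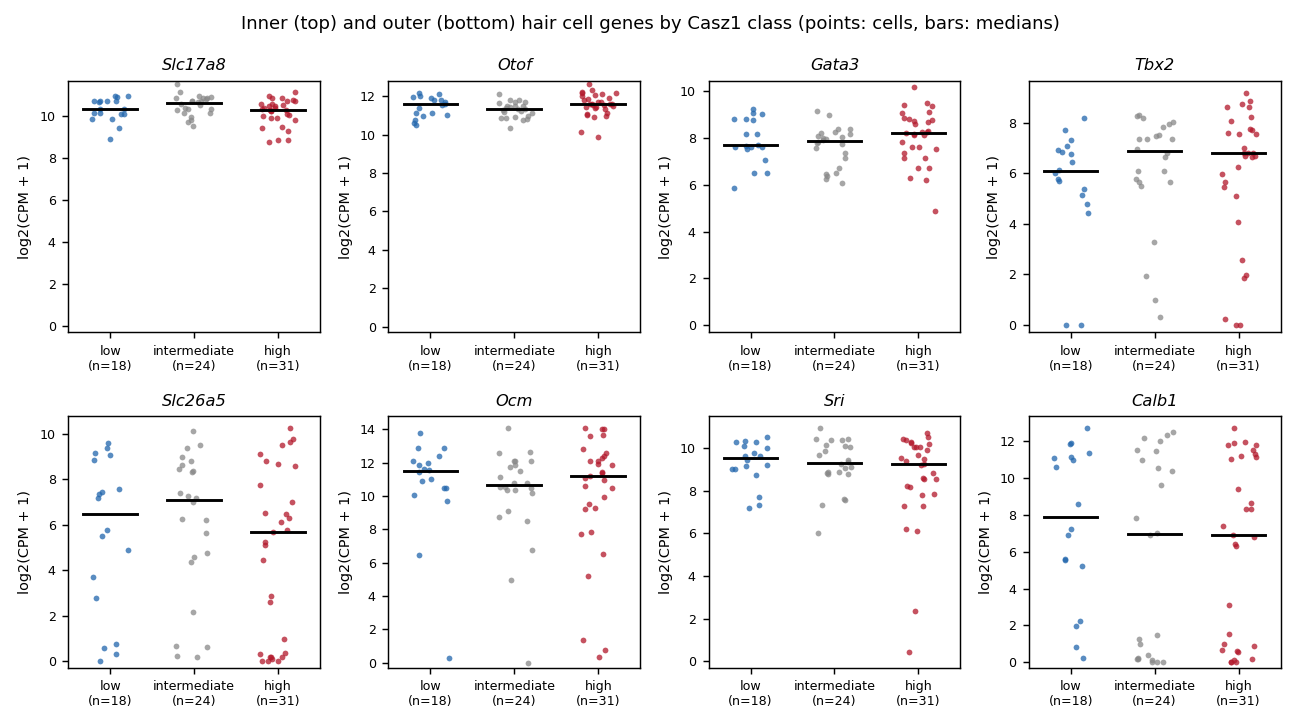
Levels of 4 inner hair cell genes (top) and 4 outer hair cell genes (bottom) in each cell as log2(CPM + 1), by Casz1 class; points are cells and bars medians. Slc17a8 and Otof fill a narrow band in all classes, while Slc26a5 and Calb1 spread from near 0 to 772 CPM or more within each class.

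Genes of hair cells in general were alike at both ends of the Casz1 scale. Of 18, 8 were higher and 10 lower in the high-Casz1 cells (median difference -0.03). None passed the 2-fold rule downwards (all genes, 7.70%) and 1 passed it upwards (11.1%). This was the homeobox gene Barhl1, needed for hair cell survival (difference 1.19, pair share 65.9%). It had medians of 43.6, 41.9 and 18.1 CPM and detection in 20 of 31, 18 of 24 and 10 of 18 cells. Barhl1 stayed 2-fold higher in 12 of 15 alternative settings. It stood at 0.99 without library 67, 0.80 with a pseudocount of 10 and 0.78 with all cells divided at 25 CPM of Casz1. The unconventional myosin of the stereocilia tip, Myo15, had the highest correlation with Casz1 of this list, a Spearman rho of 0.36 over the 73 cells, with medians of 853, 472 and 613 CPM. Among 18 factors of hair cell fate that were compared, only Barhl1 was past the rule upwards (all genes, 11.1%). Only the transcriptional coactivator gene Eya1 was past it downwards (-1.69; all genes, 7.70%), with Eya1 in 21 of 31 high-Casz1 and 17 of 18 low-Casz1 cells. Pou4f3, the survival factor of hair cells, stood at medians of 452 and 384 CPM.

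At the ribbon synapse, where inner hair cells release transmitter, members were split. Of 14 genes compared, 5 were at least 2-fold higher in the high-Casz1 cells (all genes, 11.1%) and 2 at least 2-fold lower (7.70%). The higher ones were the active zone scaffolds Erc2 (1.70), Pclo (1.40) and Rimbp2 (1.26), the calcium sensor Syt7 (1.61) and the fusion ATPase Nsf (1.53). Erc2 stood at 0.0472, 133 and 604 CPM (lowest, median, highest) in the high-Casz1 and 0, 57.5 and 204 CPM in the low-Casz1 cells, with a pair share of 66.1%. All 5 overlapped between the classes, with pair shares of 62.2% to 66.1%. The lower ones were the SNARE gene Snap25 (-1.29) and Cacnb2. With all cells divided at 25 CPM of Casz1, Pclo stood at 0.66, Rimbp2 at 0.29 and Snap25 at -0.62. Cacna1d, the pore of the Cav1.3 calcium channel that Cacnb2 serves, had medians of 309 and 296 CPM (0.11).

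Cacnb2, which encodes the beta2 subunit of voltage-gated calcium channels, had the lowest pair share of all genes compared, 16.5%. Its lowest, median and highest level was 0, 60.8 and 221 CPM in the high-Casz1 cells, 41.9, 134 and 639 CPM in the intermediate cells and 41.6, 154 and 477 CPM in the low-Casz1 cells, a difference of -2.18. For cells at 100 CPM of Casz1 or more against those below 1 CPM, the difference was -0.73. All low and all intermediate cells held at least 41.6 CPM, and 7 of 31 high-Casz1 cells (22.6%, 9.59 to 41.1) were under 10 CPM. For 0 of 18 low-Casz1 cells under that level, the exact interval reaches up to 18.5%. Within the high-Casz1 cells the correlation of Cacnb2 with Casz1 was positive (rho 0.38), against -0.44 over all 73 cells. The gene lies at chr2:14603088-14987908 on the plus strand of mm10.

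A minority of the channels, pumps and bundle genes compared passed the 2-fold rule. Of 13 channels and pumps, none was 2-fold higher (all genes, 11.1%) and 3 were 2-fold lower (7.70%): the inward rectifier Kcnj13 (-1.19), the potassium channel Kcnh7 (-1.79) and the sodium channel Scn8a (-1.26). Kcnj13 stayed 2-fold lower in 8 of 15 alternative settings. Of 26 bundle genes, 18 were higher and 8 lower, where 4518 of all 8618 genes were higher and 4100 lower. None passed the rule downwards (all genes, 7.70%) and 2 passed it upwards (11.1%): the ankle-link gene Adgrv1 (1.11) and Espnl (1.43), an espin-like actin-bundling protein. By differences of medians they stood at 0.39 and 0.00. Espnl reached 10 CPM in 6 of 31 high-Casz1, 5 of 24 intermediate and 0 of 18 low-Casz1 cells.

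Genes of the chromatin complexes linked to Casz1 in other tissues lay on both sides. Of 13 NuRD genes compared, 5 were higher and 8 lower, with Gatad2a (1.43) and Rbbp7 (1.02) past the rule upwards and Mta3 (-1.55) downwards (all genes, 11.1% and 7.70%). Rbbp7 stayed 2-fold higher in 7 of 15 alternative settings, and stood at 0.85 without library 67. With all cells divided at 25 CPM of Casz1, Rbbp7 stood at 0.51 and Mta3 at -0.50. The ATPase of the complex, Chd4, stood at medians of 166, 139 and 162 CPM. Of 14 Polycomb genes, 9 were higher and 5 lower. Cbx6 (1.29) was past the rule upwards and Eed (-1.10) and Jarid2 (-1.63) downwards (all genes, 11.1% and 7.70%). Leaving out the cells with a rare marker of another type, Cbx6 stood at 0.59, and with all cells divided at 25 CPM Eed stood at -0.24. Of 16 zinc-finger genes of neuronal fate 5 were compared, and none was past the rule (all genes, 11.1% upwards and 7.70% downwards). Among 10 neighbours of Casz1 on chromosome 4, none was past it upwards (all genes, 11.1%). Only the ubiquitin ligase gene Ube4b (-1.74) was past it downwards (7.70%).

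Stress genes differed gene by gene. Of 14 immediate early genes, 3 were past the rule upwards (all genes, 11.1%) and 3 downwards (7.70%). Fos (1.75), Fosb (1.42) and Ier2 (1.74) were the higher ones, and Atf3 (-2.47), Klf6 (-1.94) and Nr4a1 (-1.20) the lower ones. With all cells divided at 25 CPM of Casz1, Fosb stood at 0.48 and Ier2 at 0.22, and by differences of medians Klf6 stood at -0.59 and Nr4a1 at 0.00. Fos had medians of 313, 3.12 and 70.9 CPM, so its lowest median was in the intermediate cells. Atf3, a factor of the stress response, was detected in 18 of 31, 19 of 24 and 17 of 18 cells. Of 12 heat shock genes, Hspa1a (1.21), Hspa1b (2.46) and the mitochondrial chaperonin Hspd1 (1.26) were past the rule upwards (all genes, 11.1%) and none downwards (7.70%). By differences of medians these 3 stood at 0.00, 0.16 and 0.28. Hspa1b reached 10 CPM in 12 of 31 high-Casz1 cells (38.7%, 21.8 to 57.8), 4 of 24 intermediate cells and 1 of 18 low-Casz1 cells (5.56%, 0.141 to 27.3). Hspa1a and Hspa1b are near-identical copies, so their counts are uncertain.

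Genes of the unfolded protein response, a list chosen after values were seen, were lower in the high-Casz1 cells in 11 of 14 cases, where 4100 of all 8618 genes were lower, with a median difference of -0.29. None passed the 2-fold rule upwards (all genes, 11.1%), and Herpud1, Ddit3 and Sdf2l1 passed it downwards (7.70%). Sdf2l1 stood at -1.03, and at -0.98 without library 67, a low-Casz1 cell. It stayed 2-fold lower in 9 of 15 alternative settings, and stood at -0.59 with a pseudocount of 10. Herpud1, which acts in the degradation of misfolded proteins at the endoplasmic reticulum, stood at 0, 141 and 1125 CPM (lowest, median, highest) in the high-Casz1 cells, 6.55, 392 and 1012 CPM in the intermediate cells and 0.312, 471 and 1311 CPM in the low-Casz1 cells. Its difference was -2.50 and its pair share 22.6%, and it had the lowest rho with Casz1 of all genes compared (-0.45). Herpud1 was under 10 CPM in 7 of 31 high-Casz1 cells, 1 of 24 intermediate cells and 1 of 18 low-Casz1 cells. Hspa5, the main chaperone of the endoplasmic reticulum, was present in every cell, with a difference of -0.42. Ddit3, a factor of prolonged stress, stood at -1.50.

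Of 8 genes of p53 and apoptosis, Bcl2l1 (2.43), which protects from cell death, and Mdm2 (1.56), which limits p53, were past the rule upwards (all genes, 11.1%). Trp53 itself (-1.70) and the survival gene Mcl1 (-1.50) were past it downwards (7.70%). With all cells divided at 25 CPM of Casz1, Mdm2 stood at 0.96 and Mcl1 at -0.55. Bcl2l1 was detected in 27 of 31, 21 of 24 and 8 of 18 cells, and Mcl1 in 17, 17 and 16. Cytosolic ribosomal protein genes were lower in the high-Casz1 cells in 60 of 76 cases by small amounts, where 4100 of all 8618 genes were lower. Their median difference was -0.16, with 1 gene past the rule upwards (all genes, 11.1%) and none downwards (7.70%). Of 34 proteasome subunit genes, 13 were higher and 21 lower, with 1 past the rule upwards (all genes, 11.1%) and 5 downwards (7.70%). Genes encoded by the mitochondrial genome had a median difference of 0.00.

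Over all 8618 genes other than Casz1, 958 were at least 2-fold higher and 664 at least 2-fold lower in the high-Casz1 cells, together 18.8%. The minimum mean was taken over all 73 cells, so a gene held by few cells could pass it more easily through the larger high-Casz1 class. Among genes held by 25 to under 50% of cells 419 were higher and 249 lower, and by 75 to under 100% of cells 143 and 131. Leaving out the cells with a rare marker of another type, 1244 were higher and 1132 lower, and with a linear adjustment for the number of genes detected 838 were higher and 760 lower. No gene separated the 31 high-Casz1 from the 18 low-Casz1 cells without overlap. Pair shares ran from 16.5% to 82.1%. A pair share of 75% or more was reached by 18 genes (0.209%), all of them also past the 2-fold rule upwards (0.209%). One of 25% or less was reached by 9 genes (0.104%), of which 6 were past the 2-fold rule downwards (0.0696%). No Spearman rho with Casz1 over the 73 cells reached 0.5 in size: the highest was 0.49 and the lowest -0.45, with 8 genes at 0.4 or above and 5 at -0.4 or below. Each point of such a correlation is 1 cell, and both genes share its library and depth.

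Differences past the 2-fold rule were most frequent among genes held by some cells and not by others. Of 625 genes at 10 CPM or more in all 73 cells, none was past the 2-fold rule, and their differences ran from -0.83 to 0.86. Among genes held by under 25% of cells 15.4% were past it, by 25 to under 50% of cells 24.8% were past it, by 50 to under 75% of cells 24.5%, and by 75 to under 100% of cells 12.8%. Of the genes in every cell, H3f3b, which encodes the histone variant H3.3, was at the lower end (-0.83). It stood at 496, 1879 and 8867 CPM (lowest, median, highest) in the high-Casz1 and 954, 3527 and 10476 CPM in the low-Casz1 cells, and has near-identical copies, so its count is uncertain. The proteasome ATPase Psmc1 (-0.79) and the ribosomal stalk gene Rplp0 (-0.68) stood near it. At the upper end were the splicing factor gene Rbm5 (0.86) and Tmcc2 (0.86).

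**Figure D4:**
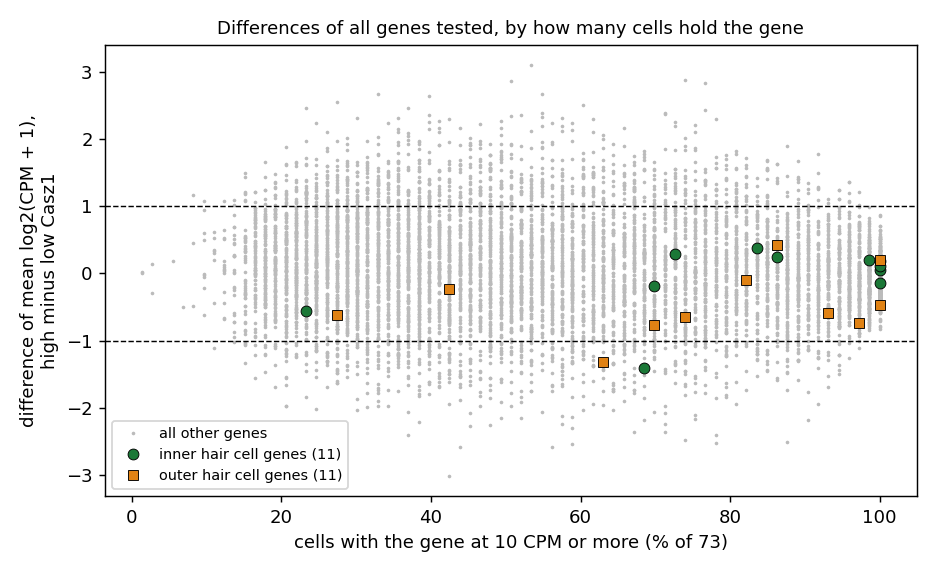
Difference of the mean log2(CPM + 1), high minus low Casz1, for each gene compared (grey), against the percentage of the 73 cells with 10 CPM or more of it. Green circles and orange squares mark the 11 inner and 11 outer hair cell genes, and dashed lines mark 2-fold differences; 1 gene of each list lies past the lower line and none past the upper.

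The 12 named genes with the highest pair shares were mostly genes found in some cells and not in others. Heatr5a, which encodes a HEAT-repeat protein, was highest (82.1%), with a lowest, median and highest level of 0, 16.4 and 411 CPM in the high-Casz1 cells, 0, 0.100 and 159 CPM in the intermediate cells and 0, 0 and 290.0 CPM in the low-Casz1 cells. It reached 10 CPM in 16 of 31, 6 of 24 and 2 of 18 cells, and its difference was 2.67. Ranbp3, a cofactor of nuclear export, had the largest difference of all genes compared (3.09). It was detected in 23 of 31 high-Casz1, 11 of 24 intermediate and 5 of 18 low-Casz1 cells, with medians of 82.1, 3.62 and 0.156 CPM. In both genes the classes overlapped, since single low-Casz1 cells reached 290.0 CPM of Heatr5a and 65.4 CPM of Ranbp3.

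Rsrc2 was the exception in being found in nearly every cell. Its lowest, median and highest level was 45.9, 212 and 429 CPM in the high-Casz1 cells, 0.0904, 182 and 388 CPM in the intermediate cells and 8.18, 109 and 256 CPM in the low-Casz1 cells, a difference of 1.35 (pair share 79.2%). Ctbp1, a transcriptional corepressor and the paralog of the ribbon gene Ctbp2, was detected in 29 of 31, 20 of 24 and 13 of 18 cells, with medians of 74.3, 56.02 and 40.9 CPM (1.57). Ctbp2 stood on the same side at 0.69. Genes of RNA synthesis were among the 12, namely Ttf2 (2.55), a termination factor of RNA polymerase II, and Polr3e (2.10), a subunit of RNA polymerase III. The others were Tmem131 (2.66), the F-box gene Fbxo22 (2.86), the ribosome assembly gene Utp11 (2.83), the kinase gene Sik2 (2.38), Fam227a (2.32) and Lrrc73 (2.01). Utp11 was detected in 29 of 31 high-Casz1, 20 of 24 intermediate and 7 of 18 low-Casz1 cells. Among genes with the highest rho were also the DNA-binding gene Arid3b (0.43), the Mediator subunit Med12 (0.42), the zinc-finger repressor Hic2 (0.41), the ubiquitin ligase Cop1 (0.41) and Tjap1 (0.43).

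The 6 genes at the other end were Cacnb2, Herpud1 and 4 more. Dcaf8, a substrate receptor of a cullin ubiquitin ligase, stood at 0.275, 74.7 and 252 CPM (lowest, median, highest) in the high-Casz1 and 20.3, 178 and 304 CPM in the low-Casz1 cells (-1.76, pair share 20.97%). Dnajc6, which encodes the clathrin-uncoating protein auxilin, was detected in 18 of 31 high-Casz1, 17 of 24 intermediate and 17 of 18 low-Casz1 cells (-2.35). Raph1, which encodes the actin regulator lamellipodin, was detected in 7, 11 and 13 cells of these classes and had the most negative difference of all genes compared (-3.00). Eif2s3x, a subunit of the translation factor eIF2 with a near-identical copy on the Y chromosome, stood at -1.76. Genes with the lowest rho also included the stress-induced Gadd45a (-0.40), the Hsp70 partner Hspbp1 (-0.41), the signal peptidase subunit Spcs1 (-0.42), Cwf19l2 (-0.39) and Morf4l2 (-0.38). Spcs1 was found in every cell, with medians of 299, 386 and 399.8 CPM. The differences of all 29 genes named by pair share or rho kept their sign in each of 15 alternative settings. These genes were picked as the extremes in the same cells that the alternatives reuse, so the kept signs do not test them.

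**Figure D5:**
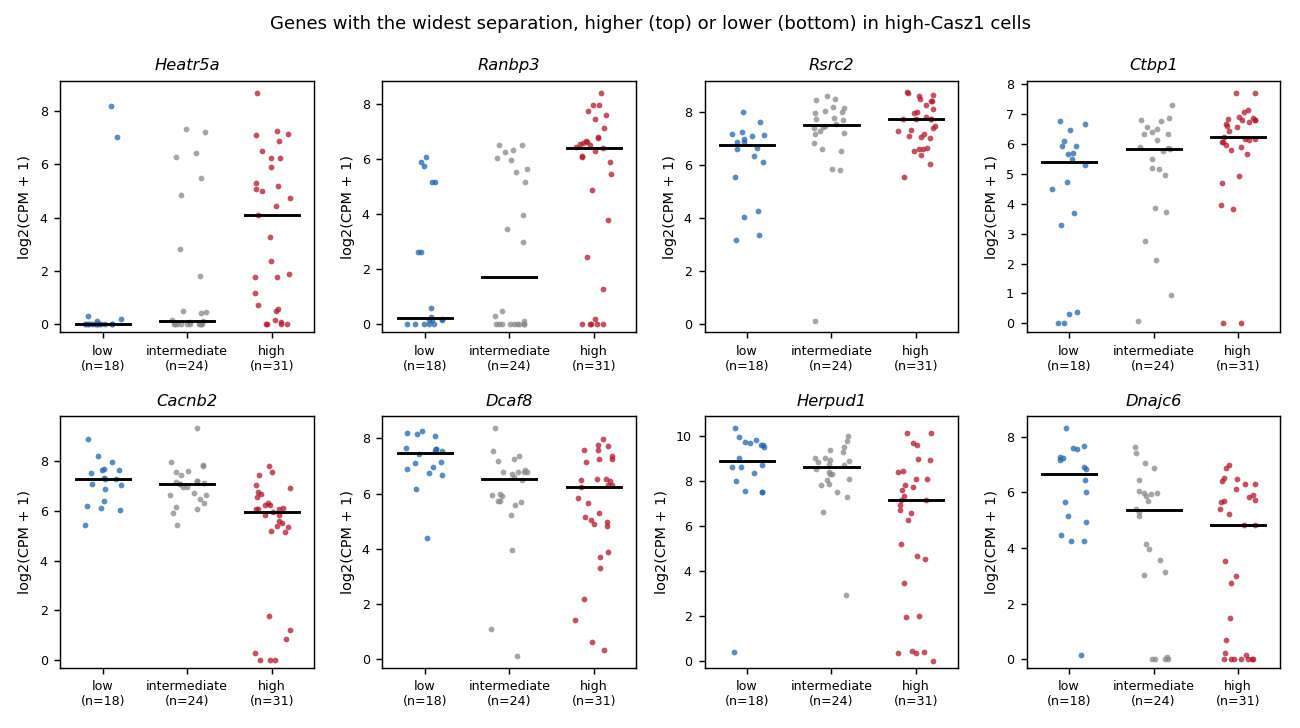
Levels of 4 genes with high (top) and 4 with low (bottom) pair shares in each cell as log2(CPM + 1), by Casz1 class; points are cells and bars medians. The classes overlap for each gene, and cells at or near 0 account for part of the spread, such as the 7 of 31 high-Casz1 cells under 10 CPM of Cacnb2.

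Inside each class these genes did not follow the Casz1 level in 1 direction. Of the 958 genes at least 2-fold higher in the high-Casz1 cells, 50.4% had a positive rho with Casz1 among the 31 high-Casz1 cells, 58.5% among the 24 intermediate cells and 54.6% among the 18 low-Casz1 cells. Over all genes compared these shares were 52.1%, 54.3% and 51.7%. Of the 18 genes past both rules upwards, 13, 8 and 13 had a positive rho in the 3 classes, and of the 6 past both downwards, 5, 4 and 3. Heatr5a had a rho of 0.10 among the high-Casz1, 0.36 among the intermediate and -0.01 among the low-Casz1 cells. Arid3b had 0.41, -0.10 and 0.40.

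The median summed exon length was 5088 bases for the 2-fold higher and 4507 bases for the 2-fold lower genes, beside 4658 bases over all genes with a length in the annotation (98.8% of those compared). Their mean level had a median of 33.7 CPM for the higher and 41.9 CPM for the lower genes, beside 42.1 CPM over all genes compared.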

How the data were processed

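Counts per gene and cell were deposited by the authors for 73 libraries of 1 cell each; per the submitters' processing notes, HISAT2 2.2.1, StringTie 2.2.1, featureCounts 2.0.1 and the build mm10 were used, with no settings given. Without molecular identifiers in this kit, PCR copies are counted, and no doublet caller was run on these hand-picked cells. The reporter row WPRE (0.0161% of counts) was kept out of totals. Totals ran from 11027945 to 37183702 counts. CPM and log2(CPM + 1) were computed from the counts, genes averaging at least 10 CPM were kept, and differences of means, pair shares (ties split evenly) and Spearman correlations were computed with Python 3.11.15, numpy 2.4.6, pandas 2.3.3 and scipy 1.17.1. The differences of means and the pair shares were also computed on simulated counts with known folds. Only the order of the differences was checked there, and the correlations and alternative settings were not. edgeR 4.0.16 and DESeq2 1.42.0 gave alternative scaling factors only; with 1 sample and no animals named, no count model or test between groups was fitted. Positions come from GENCODE vM21 of the same build. The text names members of 24 gene lists (319 genes), up to 12 genes at each end of the pair share among those past both rules, and the 8 highest and 8 lowest correlations, skipping genes without an official name. The classes, lists and rules were chosen with earlier results of these data known. Ribosomal, proteasome and mitochondrial families and the unfolded protein response list were added after values were seen.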

Additional observations from a re-analysis of the deposited data

How the results depend on the processing

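Of 62 genes named in the text and past the 2-fold rule, 59 kept their sign in all 15 alternatives run for each, and the other 3, Espnl, Nr4a1 and Hspa1a, stood at 0.00 by differences of medians. Each alternative reused the same libraries, and the genes had already passed the rule in them, so kept signs are no independent support. Of the 62, 19 stayed 2-fold or more in all 15 and 43 fell under it in at least 1; the remaining genes past the rule were not followed singly. The number of genes at least 2-fold higher in the high-Casz1 cells (958) and lower (664) moved with the settings. With a pseudocount of 10 they were 104 and 74, with a minimum mean of 50 CPM 296 and 272, and for cells at 100 CPM of Casz1 or more against those below 1 CPM 1787 and 1062. The lower genes were also 300 with all cells divided at 25 CPM of Casz1, 1053 by differences of medians and 1132 without the cells holding a rare marker of another cell type. Of the genes past the rule, 705 higher and 427 lower ones were shared with the wider Casz1 thresholds, and 667 and 509 with the set without marker-holding cells. Without libraries 5 (intermediate) and 67 (low), chosen because they held the most marker reads of other cells, the counts were 1004 and 656, and with DESeq2 size factors 892 and 733. Detection differences, high minus low, changed side with the threshold. For Tbx2 they were -8.24 percentage points at 10 CPM and 1.43 at 1 CPM. For Atp2a3 they were -11.47 at 1 CPM, -0.36 at 10 CPM and 7.53 at 50 CPM. No paired analysis was possible because all cells form 1 group. Classes of 31 and 18 cells limit precision: a gene found in some cells only can pass a 2-fold difference through a few cells.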
